A study of Mus musculus with 12 samples.

Results

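The genes described here are 36 genes of cholesterol metabolism in mouse liver, out of 13097 genes with counts. They were taken as a named list of pathway genes. The list's rule uses no measured value, though it was drawn up with earlier results of these data known. The list holds 20 synthesis enzymes (8 from acetyl-CoA to farnesyl and geranylgeranyl pyrophosphate and 12 from squalene onwards), 4 sterol-sensing regulators and 12 genes of uptake, intracellular transport, esterification and efflux. All 36 were in the table, and all passed the filter on low counts.

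Liver RNA came from 12 female C57BL/6 mice aged 3 months, in 4 groups of 3 individual mice. Wild type mice and mice labelled as liver-specific Sirt6 knockouts were each split by feeding. Pair-fed mice of either genotype received an isocaloric control diet, and ethanol-fed mice a Lieber-DeCarli diet with 5% ethanol, for 10 days. A single binge closed the feeding, of ethanol at 5 g/kg in the ethanol arm and, as the protocol reads, of maltose dextrin in the control arm, so diet and binge cannot be told apart. The labels name neither the Cre driver nor the deleted exons. The comparisons asked how ethanol feeding altered these transcripts in each genotype, and how the genotypes differed under each diet.

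Cholesterol is built from acetyl-CoA through mevalonate, farnesyl pyrophosphate and squalene to lanosterol, which a series of demethylations, reductions and isomerisations turns into cholesterol. Transcription of most of these enzymes is driven by SREBP-2, the product of Srebf2. When membranes hold much sterol, Insig proteins retain SREBP-2 and its escort Scap in the endoplasmic reticulum. Insig1 is itself an SREBP target gene, whereas in rodent liver Insig2 has an upstream start whose transcript insulin lowers. Oxysterols act on the liver X receptors encoded by Nr1h3 and Nr1h2, known activators of the efflux transporter genes Abca1, Abcg5 and Abcg8. The liver is the main organ that takes up, makes and secretes sterol.

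The promoters of 4 genes are shown because of their ethanol responses. Insig1 and Insig2 had the largest of the regulators. Acat2 and Hmgcs1 had the largest of the first synthesis steps in wild type, with Idi1 (-1.41) close to Hmgcs1 (-1.43). In labelled knockouts Idi1 (-1.28) and Pmvk (-0.87) fell further than Hmgcs1 (-0.81). Each run holds the 250 bases before the start given by RefSeq for GRCm38.p6, 5′ to 3′ on the gene's own strand. Capitals mark CACNCCAC, the core of the sterol regulatory element, and CCAAT, the NF-Y box, each searched on both strands (on the other strand CCAAT reads ATTGG). No capital run holds both motifs.
Insig1, chr5:28071162-28071411, plus strand: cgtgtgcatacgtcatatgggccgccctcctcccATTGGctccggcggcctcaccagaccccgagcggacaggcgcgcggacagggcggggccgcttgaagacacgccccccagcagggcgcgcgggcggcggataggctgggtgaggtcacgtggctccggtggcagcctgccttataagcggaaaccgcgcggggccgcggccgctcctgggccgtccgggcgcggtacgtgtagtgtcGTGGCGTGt
Hmgcs1, chr13:119690101-119690350, plus strand: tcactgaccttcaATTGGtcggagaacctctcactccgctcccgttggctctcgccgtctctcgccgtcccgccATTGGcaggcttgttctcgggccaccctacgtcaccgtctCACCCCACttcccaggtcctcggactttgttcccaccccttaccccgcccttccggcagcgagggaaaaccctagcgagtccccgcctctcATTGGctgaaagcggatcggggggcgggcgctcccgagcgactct
Acat2, chr17:12960726-12960975, minus strand: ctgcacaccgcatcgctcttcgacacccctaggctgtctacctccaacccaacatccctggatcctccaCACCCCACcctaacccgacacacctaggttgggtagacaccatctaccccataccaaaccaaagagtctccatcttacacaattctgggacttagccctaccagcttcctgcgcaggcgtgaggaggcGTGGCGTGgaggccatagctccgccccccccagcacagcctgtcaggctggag
Insig2, the most upstream of 3 starts, chr1:121332590-121332839, minus strand: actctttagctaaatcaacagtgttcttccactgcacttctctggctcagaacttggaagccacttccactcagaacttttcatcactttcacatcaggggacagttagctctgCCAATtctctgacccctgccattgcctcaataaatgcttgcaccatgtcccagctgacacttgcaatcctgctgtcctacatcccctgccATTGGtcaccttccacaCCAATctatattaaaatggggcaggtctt
The Insig1, Hmgcs1 and Acat2 windows hold the sterol element core, beginning 9, 136 and 181 bases before the start, with another in Acat2 at 53 bases. The Insig2 window holds none of these cores and 3 NF-Y boxes. RefSeq windows were matched for 29 of the 36 genes (37 windows). CACNCCAC was in 3 of the 37 (8.11%), against 5.29% of all 32851 promoter windows of that length, and CCAAT in 23 of the 37 (62.2%), against 33.8%. The 3 windows with CACNCCAC were those of Insig1, Hmgcs1 and Acat2 shown above. Windows of Idi1, Pmvk and Nsdhl, which also fell in both genotypes, held no such core. The shares describe letters in a window and were given no test.

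Libraries held 17305141 to 18279809 counted reads. Levels below are TMM-normalised CPM (counts scaled to a common library size), with RPKM (the same per kilobase of transcript) where genes are compared with one another. Changes are log2 fold changes ± standard error, with edgeR's quasi-likelihood test (n = 3 mice per group). That test reports no standard error. It was derived as the size of the change over the square root of the test's F, and the 95% intervals were built from it. A gene is said to rise or fall only at a Benjamini-Hochberg adjusted p under 0.05 over all 13097 genes. Sirt6 had 51, 49 and 68 reads in the pair-fed wild types against 52, 46 and 47 in the pair-fed labelled knockouts, and 67, 54 and 60 against 53, 58 and 62 after ethanol. Sirt6 was thus not visibly lower in the libraries labelled knockout, and directions between genotypes below are those of the labels. Albumin took 11.03% to 12.7% of counted reads in pair-fed and 6.10% to 9.55% in ethanol-fed mice. The 6 hepatocyte markers, albumin among them, were all present. They summed to 134283 to 153871 CPM in pair-fed and 68956 to 130658 CPM in ethanol-fed mice. Most of each sum was albumin (means of 124017 of 143684 CPM in wild type pair-fed and 69183 of 88664 CPM in wild type ethanol-fed mice). The sums thus largely repeat albumin, and in labelled knockouts ethanol called 0 of the 6 lower. All 12 Kupffer cell markers were present, with none at 0. Their summed level was 406 to 609 CPM in wild type pair-fed, 602 to 768 in labelled knockout pair-fed, 291 to 673 in wild type ethanol-fed and 280.3 to 374 in labelled knockout ethanol-fed mice. Ethanol called 0 of the 12 lower in wild type (edgeR, 0 also at unadjusted p under 0.05) and 11 of the 12 lower in labelled knockouts. Among the other cell type lists, ethanol called 1 hepatocyte marker higher in each genotype and 2 lower in wild type, and 2 of 6 endothelial markers higher in each. It called 1 (wild type) and 2 (labelled knockouts) of 6 stellate markers higher and 1 and 2 of 5 measured lymphocyte markers lower. Of 4 cholangiocyte markers 1 was called higher in each genotype and 1 lower in wild type, and the 1 measured neutrophil marker was higher in wild type. Over all genes ethanol called 18.9% higher and 14.5% lower in wild type, and 13.7% higher and 10.9% lower in labelled knockouts. Beside those shares, the counts of these other lists are not read as changes of a cell type. The part of any of these cell types in the changes below was not tested. In bulk liver, fewer cells of a type and less RNA per cell cannot be told apart.

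Ethanol feeding of wild type mice lowered 17 of the 36 genes and raised 4, against 14.5% of all genes lower and 18.9% higher (33.4% in either direction). The median log2 fold change of the 36 was -0.45, against 0.03 over all genes. In labelled knockouts 15 of the 36 fell and 2 rose, against 10.9% lower and 13.7% higher over all genes (24.6% in either direction), with medians of -0.37 and 0.04. With scaling to total counts alone the median of all genes moved by 0.15 in wild type and 0.10 in labelled knockouts, and higher genes made up 74.1% and 69.9% of calls rather than 56.6% and 55.7%. Under that scaling 11 of the 36 fell and 4 rose in wild type (background 8.57% lower and 24.6% higher). In labelled knockouts 9 fell and 2 rose (background 7.09% lower and 16.5% higher). The wild type calls it ended were those of Fdps, Lss, Tm7sf2, Scarb1 (-0.27), Nr1h3 (-0.28) and Abcg8, at adjusted p of 0.0595 to 0.241. Those it ended in labelled knockouts were Hmgcs1, Pmvk, Idi1, Lss, Scarb1 (-0.39) and Nr1h3 (-0.27), at adjusted p of 0.0544 to 0.123. With only the 2 wild type groups fitted, Fdps, Lss, Tm7sf2 and Abcg8 also missed the threshold (adjusted p 0.0523 to 0.0993). No synthesis enzyme rose in either genotype (edgeR; lowest and highest log2 fold changes over both, -2.15 and 0.22, with Sqle the highest in each). Of the uptake, ester and efflux genes 3 rose and 6 fell in wild type, and 1 rose and 7 fell in labelled knockouts.

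**Figure D1:**
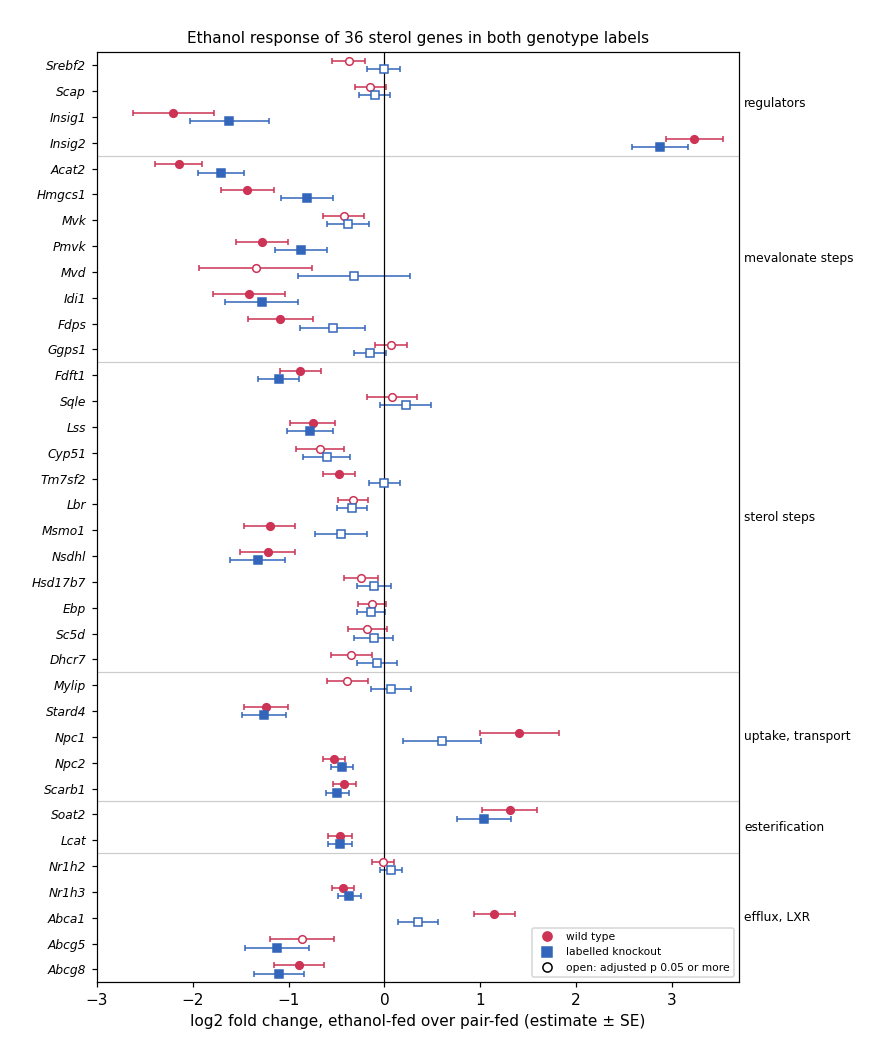
Log2 fold change of ethanol-fed over pair-fed mice for each of the 36 genes, grouped by role, in wild type and labelled knockout mice, with error bars of 1 standard error, filled points for adjusted p under 0.05 and open points otherwise. Insig2 stands furthest to the right at 3.23 and 2.87, and Insig1 and Acat2 furthest to the left.

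Among the regulators, the paired Insig genes went in opposite directions. Insig2 (chr1:121304353-121332589, mm10) read 44.5, 61.0 and 73.2 CPM in the wild type pair-fed mice and 327, 639 and 714 CPM in the wild type ethanol-fed mice. The groups did not overlap, and Insig2 rose by 3.23 ± 0.30 on the log2 scale, or 9.40-fold (edgeR adjusted p = 7.34e-05). In labelled knockouts it read 66.4, 68.3 and 82.7 CPM pair-fed and 483, 428 and 682 CPM ethanol-fed, a rise of 2.87 ± 0.29 (adjusted p = 0.00013). Every ethanol-fed mouse was above every pair-fed mouse.

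Insig1 (chr5:28071412-28078662) read 399, 330.0 and 329 CPM in wild type pair-fed and 116, 82.8 and 30.6 CPM in wild type ethanol-fed mice. It fell by 2.20 ± 0.42 on the log2 scale (adjusted p = 0.00259), with the groups apart. In labelled knockouts 255, 223 and 234 CPM became 42.0, 106 and 83.6 CPM, a log2 change of -1.62 ± 0.41 (adjusted p = 0.0159). Per length, each pair-fed liver held more Insig1 than Insig2, at 5.02 to 9.99 times in wild type and 3.15 to 4.29 times in labelled knockouts. Each ethanol-fed liver held less, with a ratio of 0.0478 to 0.397 in wild type and 0.0969 to 0.277 in labelled knockouts. Srebf2 itself read 104, 101 and 94.1 CPM in wild type pair-fed and 99.5, 63.1 and 68.1 CPM in wild type ethanol-fed mice (-0.37 ± 0.17, adjusted p = 0.116). It did not pass with all mice, but ethanol-fed mice 2 and 3 lay below the pair-fed range and Srebf2 passed without ethanol-fed mouse 1 (-0.60, adjusted p = 0.00739). In labelled knockouts 83.0, 78.1 and 80.7 CPM stood against 65.1, 94.4 and 81.3 CPM (-0.01 ± 0.17). Scap, the escort, read 147 to 281 CPM over the 12 mice, with log2 fold changes of -0.15 and -0.10 that did not pass.

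**Figure D2:**
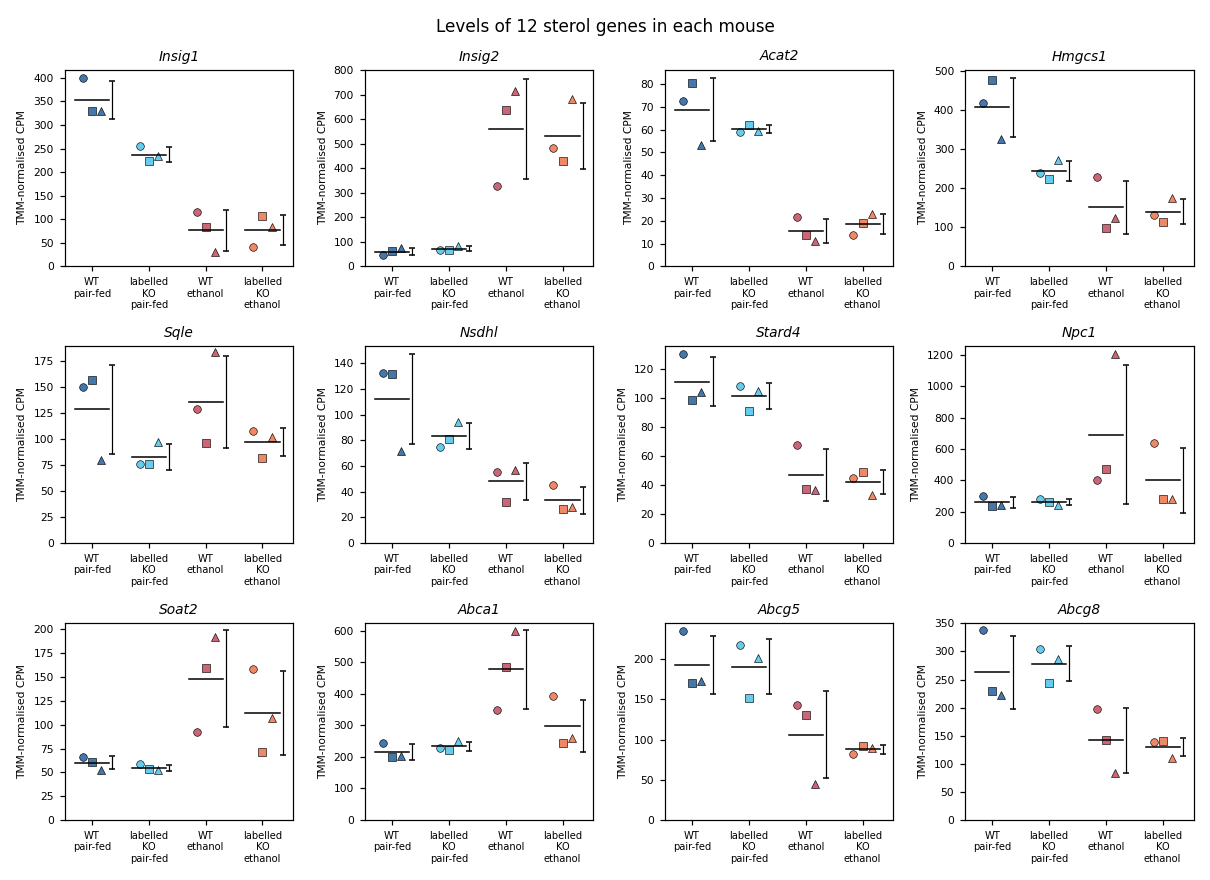
TMM-normalised CPM of 12 genes in each mouse, by group, on linear axes from 0, with a circle, square and triangle for mouse 1, 2 and 3, a line at each group mean and a bar of 1 SD to either side. The ethanol-fed mice lie wholly below the pair-fed mice for Insig1 and Acat2 and wholly above them for Insig2.

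Of the 8 enzymes from acetyl-CoA to the prenyl pyrophosphates, 5 fell in wild type (median -1.31) and 4 in labelled knockouts (median -0.67). Acat2, the cytosolic thiolase that joins acetyl-CoA units at the entry to the pathway, read 72.4, 80.5 and 53.4 CPM in wild type pair-fed and 21.5, 13.9 and 11.2 CPM in wild type ethanol-fed mice. Its log2 change was -2.15 ± 0.24 (adjusted p = 0.000119), 4.42-fold lower, and no ethanol-fed mouse reached the pair-fed range. In labelled knockouts 59.0, 62.3 and 59.4 CPM stood against 13.8, 19.0 and 22.8 CPM, a change of -1.70 ± 0.24 (adjusted p = 0.000629). Despite its symbol, this is not the sterol esterifying enzyme, which is the product of Soat2.

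Hmgcs1, the synthase that condenses the product of Acat2 with a further acetyl-CoA, read 419.5, 478 and 326 CPM in wild type pair-fed and 229, 99.7 and 124 CPM in wild type ethanol-fed mice (-1.43 ± 0.28, adjusted p = 0.00225). In labelled knockouts 241, 223 and 273 CPM stood against 131, 113 and 176 CPM (-0.81 ± 0.27, adjusted p = 0.0473). The groups were apart in both genotypes. Pmvk, which adds the second phosphate to mevalonate, read 106, 90.9 and 55.6 CPM pair-fed and 25.4, 29.9 and 48.6 CPM ethanol-fed in wild type (-1.28 ± 0.27, adjusted p = 0.00399), and 46.6, 53.6 and 49.2 CPM against 31.1, 19.7 and 30.8 CPM in labelled knockouts (-0.87 ± 0.27, adjusted p = 0.0353). These knockout calls were close to the threshold. That of Hmgcs1 ended in 8 of 12 fits that left out 1 mouse (each pair-fed mouse of either genotype, or labelled knockout ethanol-fed mouse 1 or 2), at log2 changes of -0.87 to -0.68. That of Pmvk ended without any 1 of the 6 labelled knockout mice, at -0.98 to -0.69.

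Idi1, the isomerase of the isoprenoid units, was the least abundant enzyme of the pathway per length, at 2.10 RPKM in wild type pair-fed mice. It read 6.10, 7.89 and 4.09 CPM in wild type pair-fed and 3.26, 1.14 and 2.36 CPM in wild type ethanol-fed mice (-1.41 ± 0.37, adjusted p = 0.0117). In labelled knockouts 3.95, 4.44 and 5.95 CPM stood against 1.43, 2.90 and 1.56 CPM (-1.28 ± 0.38, adjusted p = 0.0278). The groups were apart in both genotypes. The first call ended without wild type pair-fed mouse 2 (-1.17, adjusted p = 0.0552) and the other without labelled knockout pair-fed mouse 2 or 3 or ethanol-fed mouse 1 or 3 (-1.33 to -1.09). Fdps, the farnesyl pyrophosphate synthase, fell in wild type at -1.09 ± 0.34 (adjusted p = 0.0293) and had a change of -0.54 ± 0.34 (adjusted p = 0.268) in labelled knockouts. Its call ended without wild type pair-fed mouse 1 or 2 or ethanol-fed mouse 2 (-1.03 to -0.81). Mvk, Mvd and Ggps1 passed in neither genotype with all mice. Mvd, the decarboxylase, read 44.8, 41.9 and 24.1 CPM pair-fed and 31.4, 5.76 and 6.46 CPM ethanol-fed in wild type (-1.34 ± 0.59, adjusted p = 0.102). Ethanol-fed mouse 1 lay within the pair-fed range, and without it Mvd passed (-2.59, adjusted p = 0.000822), as it did in limma-voom (-1.74, adjusted p = 0.0231). Ggps1, which makes the geranylgeranyl donor for protein prenylation rather than a sterol precursor, had changes of 0.07 and -0.15.

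Of the 12 enzymes from squalene synthesis to cholesterol, 5 fell in wild type (median -0.41) and 3 in labelled knockouts (median -0.24). Fdft1, squalene synthase, read 122, 135 and 107 CPM in wild type pair-fed and 58.0, 47.9 and 92.6 CPM in wild type ethanol-fed mice (-0.88 ± 0.21, adjusted p = 0.00743). In labelled knockouts 101, 106 and 90.6 CPM stood against 45.1, 38.2 and 55.3 CPM (-1.10 ± 0.22, adjusted p = 0.00336). All 6 ethanol-fed mice were below all 6 pair-fed mice except that wild type ethanol-fed mouse 3 lay above labelled knockout pair-fed mouse 3. Fdft1 shares 773 of its 3697 exonic bases with Ctsb on the opposite strand, and without a stated strand setting those reads cannot be told apart.

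Nsdhl, a dehydrogenase of the demethylation complex, read 132, 132 and 71.5 CPM pair-fed and 55.2, 31.8 and 57.1 CPM ethanol-fed in wild type (-1.22 ± 0.29, adjusted p = 0.00691). In labelled knockouts 74.5, 81.2 and 94.0 CPM stood against 45.3, 26.3 and 28.1 CPM (-1.32 ± 0.29, adjusted p = 0.00699). Neither call ended in any fit that left out 1 mouse. Msmo1, the methyl sterol oxidase that acts beside Nsdhl, read 262, 291 and 170.4 CPM pair-fed and 144, 87.4 and 83.9 CPM ethanol-fed in wild type (-1.20 ± 0.27, adjusted p = 0.00531). In labelled knockouts 167, 153 and 165 CPM stood against 94.3, 94.2 and 166 CPM (-0.45 ± 0.27, adjusted p = 0.234). Ethanol-fed mouse 3 lay within the pair-fed range there, and the difference between the 2 responses was 0.74 ± 0.38 (interaction, adjusted p = 0.948).

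Lss, the cyclase that forms lanosterol, fell by 0.75 ± 0.24 in wild type (adjusted p = 0.0285), from 146, 126 and 72.7 CPM to 56.7, 54.7 and 93.3 CPM, with overlapping ranges. It fell by 0.78 ± 0.24 in labelled knockouts (adjusted p = 0.0324). There it read 86.1, 84.5 and 89.0 CPM pair-fed and 52.1, 48.0 and 51.4 CPM ethanol-fed, with the groups apart. The wild type call ended without pair-fed mouse 1 or 2 or ethanol-fed mouse 1 or 2 (-0.68 to -0.54), and the other without any 1 of the 6 labelled knockout mice (-0.80 to -0.74). Tm7sf2, a sterol reductase, changed by -0.47 ± 0.17 in wild type (adjusted p = 0.042) and had a value of -0.00 ± 0.16 in labelled knockouts. Its call ended in 8 of 12 fits that left out 1 mouse (wild type pair-fed 1 or 2, any labelled knockout pair-fed, wild type ethanol-fed 2 or 3, or labelled knockout ethanol-fed 2), at -0.51 to -0.28. Lbr, the nuclear envelope protein with the same reductase activity, had 6.56 RPKM against 122 RPKM for Tm7sf2 in wild type pair-fed mice and changes of -0.33 and -0.34 that did not pass, although the first did without wild type ethanol-fed mouse 3 (-0.50, adjusted p = 0.0249).

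Sqle, squalene epoxidase, a rate-limiting step, was singled out after its values were seen because it stood apart from its neighbours Fdft1 and Lss. It read 149, 157 and 79.6 CPM in wild type pair-fed and 129, 95.6 and 183 CPM in wild type ethanol-fed mice. The ranges overlapped, and the change was 0.08 ± 0.26 (95% interval -0.49 to 0.65). In labelled knockouts 75.9, 75.7 and 97.3 CPM stood against 107, 81.8 and 101 CPM, a value of 0.22 ± 0.27 (95% interval -0.35 to 0.80). The wild type value took the other sign when wild type pair-fed mouse 3 or ethanol-fed mouse 3 was left out, at -0.17 and -0.20. Cyp51, the lanosterol demethylase, narrowly missed the threshold in wild type (-0.67 ± 0.25, adjusted p = 0.0511). It passed with DESeq2 (adjusted p = 0.0277), with median-of-ratios factors, with the filter of 1 CPM in 6 libraries, and without wild type pair-fed mouse 3 or ethanol-fed mouse 3 (-0.88 for each) or labelled knockout ethanol-fed mouse 1 or 2 (-0.67 for each). In labelled knockouts its value was -0.60 (adjusted p = 0.093), and it passed with only those 2 groups fitted (-0.63, adjusted p = 0.0305). The late steps Hsd17b7, Ebp, Sc5d and Dhcr7 passed in neither genotype, with changes of -0.34 to -0.08. Sc5d, Ebp and Tm7sf2 were among the most abundant of the 36 per length in wild type pair-fed mice, at 247, 148 and 122 RPKM.

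Summed over the 20 enzymes, synthesis transcripts reached 3413, 3392 and 2317 CPM in wild type pair-fed and 1958, 1746 and 2278 CPM in wild type ethanol-fed mice. In labelled knockouts the sums were 2195, 2121 and 2289 CPM pair-fed and 1815, 1412 and 1833 CPM ethanol-fed. Wild type pair-fed mouse 3 lay close to wild type ethanol-fed mouse 3. The sum for uptake, ester and efflux genes was 2223 to 2534 CPM in wild type pair-fed and 2188 to 3056 CPM in wild type ethanol-fed mice. In labelled knockouts it was 2249 to 2439 CPM pair-fed and 1745 to 2330 CPM ethanol-fed, and those sums overlapped in both genotypes.

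**Figure D3:**
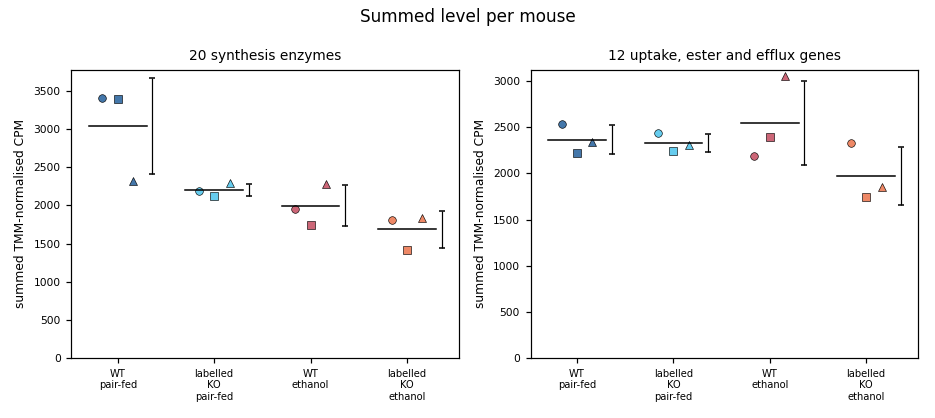
Summed CPM of the 20 synthesis enzymes and of the 12 uptake, ester and efflux genes in each mouse, by group, with a circle, square and triangle for mouse 1, 2 and 3, a line at each group mean and a bar of 1 SD to either side. Synthesis sums are highest in wild type pair-fed mice 1 and 2, at 3413 and 3392 CPM.

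Of the 5 uptake and transport genes, 3 fell in each genotype. Stard4, a soluble carrier that moves sterol between membranes and a known SREBP target, read 131, 98.8 and 105 CPM in wild type pair-fed and 68.0, 37.5 and 36.6 CPM in wild type ethanol-fed mice (-1.23 ± 0.23, adjusted p = 0.00177). In labelled knockouts 108, 91.3 and 105 CPM stood against 45.0, 49.1 and 33.3 CPM (-1.26 ± 0.23, adjusted p = 0.00243). Every ethanol-fed mouse was below every pair-fed mouse. Scarb1, the hepatic HDL receptor, read 237, 219 and 219 CPM pair-fed and 151, 177 and 176 CPM ethanol-fed in wild type (-0.42 ± 0.12, adjusted p = 0.0168). In labelled knockouts it fell by 0.49 ± 0.12 (adjusted p = 0.0107), from 236, 208 and 202 CPM to 165, 154 and 140.0 CPM. The Scarb1 groups did not overlap, but the calls ended without wild type pair-fed mouse 1 or ethanol-fed mouse 1 (-0.38 and -0.35) or, in labelled knockouts, without pair-fed mouse 1 (-0.42).

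The lysosomal pair that hands sterol out of late endosomes, Npc2 and Npc1, went in opposite directions in wild type. Npc2, the soluble partner, read 127, 115 and 117 CPM pair-fed and 83.4, 87.8 and 77.4 CPM ethanol-fed in wild type (-0.53 ± 0.11, adjusted p = 0.00392). In labelled knockouts it read 111, 118 and 110.4 CPM against 84.2, 73.4 and 91.3 CPM (-0.45 ± 0.11, adjusted p = 0.0138), a call that ended without pair-fed mouse 2 (-0.41, adjusted p = 0.0605). Npc1, the membrane partner, described after its values were seen, read 299, 238 and 246 CPM pair-fed and 402, 471 and 1204 CPM ethanol-fed in wild type (1.41 ± 0.41, adjusted p = 0.022). In labelled knockouts 282, 266 and 245 CPM stood against 642, 279.8 and 279.6 CPM (0.60 ± 0.41, adjusted p = 0.305). A single mouse stood well above the rest of its group in each ethanol-fed group. The wild type call ended without ethanol-fed mouse 3 (0.74, adjusted p = 0.0948) or pair-fed mouse 2 or 3 (1.34 and 1.37). Mylip, the ubiquitin ligase that marks lipoprotein receptors for degradation, had changes of -0.39 and 0.07 that did not pass with all mice. It read 19.7, 19.6 and 19.1 CPM pair-fed and 21.3, 11.5 and 11.7 CPM ethanol-fed in wild type, and passed without ethanol-fed mouse 1 (-0.74, adjusted p = 0.0028). Npc1 and Npc2 are also expressed by Kupffer cells, whose summed markers overlapped between the wild type groups (406 to 609 and 291 to 673 CPM), and the part of those cells in either value was not tested.

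The esterifying enzymes also went in opposite directions. Soat2, which stores cholesterol as ester in hepatocytes, read 66.3, 60.8 and 52.8 CPM in wild type pair-fed and 92.8, 159.7 and 192 CPM in wild type ethanol-fed mice (1.31 ± 0.28, adjusted p = 0.00452). In labelled knockouts 58.4, 53.1 and 52.3 CPM stood against 159, 71.1 and 107 CPM (1.04 ± 0.28, adjusted p = 0.0196). The groups were apart in both genotypes. The labelled knockout call ended without pair-fed mouse 2 or 3 (1.02 and 1.01) or ethanol-fed mouse 1 (0.71, adjusted p = 0.0742). Lcat, the secreted enzyme that esterifies cholesterol in plasma HDL, was the most abundant of the 36 per length, at 537 RPKM in wild type pair-fed mice. It read 668, 713 and 811 CPM pair-fed and 534, 555 and 497 CPM ethanol-fed in wild type (-0.47 ± 0.12, adjusted p = 0.0119), and fell by 0.46 ± 0.12 in labelled knockouts (adjusted p = 0.0172), from 709, 709.8 and 682 CPM to 469, 487 and 569 CPM. The wild type call ended without pair-fed mouse 3 (-0.39) and the other without pair-fed mouse 1 or 2 or ethanol-fed mouse 1 (-0.45 to -0.41).

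Among the efflux genes the transporters differed in direction. Abca1, which loads cholesterol onto lipid-poor apolipoprotein A-I, read 245, 199 and 203 CPM in wild type pair-fed and 349.6, 484 and 600.0 CPM in wild type ethanol-fed mice (1.15 ± 0.21, adjusted p = 0.00157). In labelled knockouts 229, 222 and 249 CPM stood against 392, 243 and 259.8 CPM (0.35 ± 0.21, adjusted p = 0.232). The groups were apart in wild type, whereas labelled knockout ethanol-fed mouse 2 lay within its pair-fed range. Abcg8, which with Abcg5 forms the transporter that secretes sterol into bile, read 337, 229 and 222 CPM pair-fed and 198, 143 and 83.1 CPM ethanol-fed in wild type (-0.89 ± 0.26, adjusted p = 0.0207). In labelled knockouts 304, 244 and 287 CPM stood against 139.5, 139.8 and 111 CPM (-1.10 ± 0.26, adjusted p = 0.0106). The wild type call ended without pair-fed mouse 1 (-0.67, adjusted p = 0.0901).

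Abcg5 read 235, 170.0 and 173 CPM pair-fed and 143, 131 and 44.9 CPM ethanol-fed in wild type (-0.86 ± 0.33, adjusted p = 0.0647). That value passed in DESeq2 (-0.88, adjusted p = 0.0208), in limma-voom (-1.01, adjusted p = 0.0378) and without wild type ethanol-fed mouse 1 (-1.14, adjusted p = 0.0266). In labelled knockouts 217, 152 and 202 CPM stood against 81.9, 92.2 and 88.9 CPM (-1.12 ± 0.33, adjusted p = 0.0302). The groups were apart in both genotypes, and the labelled knockout call ended without pair-fed mouse 1 or 3 or any ethanol-fed mouse (-1.16 to -1.01). The genes are divergent neighbours. As counted, Abcg8 begins at chr17:84676302 (mm10), within the span of Abcg5 (84658234-84682923). The RefSeq starts used, for Abcg8 the most downstream one listed, have 109 bases between them on GRCm38.p6. That stretch is shown as the span between the pair's starts, on the plus strand, with no capitals because neither motif above occurs in it.
Abcg5 to Abcg8, chr17:84683012-84683120: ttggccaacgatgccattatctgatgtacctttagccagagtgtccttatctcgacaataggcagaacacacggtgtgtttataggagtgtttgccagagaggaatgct
In the count table their exons share 40 bases on opposite strands. Nr1h3, the liver X receptor alpha, read 106, 110.4 and 119.6 CPM pair-fed and 92.2, 80.6 and 76.6 CPM ethanol-fed in wild type (-0.43 ± 0.12, adjusted p = 0.0132). In labelled knockouts 114, 112 and 104 CPM stood against 84.7, 78.4 and 93.0 CPM (-0.37 ± 0.12, adjusted p = 0.0363). Nr1h2, the beta form, had changes of -0.02 and 0.07 that did not pass. The first Nr1h3 call ended without wild type pair-fed mouse 3 (-0.38, adjusted p = 0.0612), and the other in 8 of 12 fits that left out 1 mouse (any pair-fed mouse of either genotype or labelled knockout ethanol-fed mouse 1 or 2), at -0.40 to -0.31.

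Of the 36 genes, 14 fell in both genotypes (as did 7.65% of all genes), Insig2 and Soat2 rose in both (as did 10.8% of all genes), and 14 passed in neither (as did 60.4% of all genes). Fdps, Tm7sf2, Msmo1, Npc1 and Abca1 were called in wild type alone (as were 15% of all genes). Abcg5 was called in labelled knockouts alone (as were 6.15% of all genes). The direct test of the difference between the responses called none of the 36 (edgeR interaction, background 0.00764%). Abca1 alone reached an unadjusted p under 0.05, at -0.79 ± 0.29 (95% interval -1.43 to -0.16, adjusted p = 0.936), and DESeq2 and limma-voom also called 0, with 1 gene each at unadjusted p under 0.05. Over all genes 696 of 13097 had an unadjusted interaction p under 0.05 in edgeR. In simulated counts this interaction test recovered 21% of 2-fold and 84% of 4-fold differences, so a miss at this size does not show that the responses were alike. The labelled knockout count of 17 calls was 9 or 10 when any 1 of its pair-fed mice (10, 9 and 10 without mouse 1, 2 and 3) or ethanol-fed mouse 1 (9) was left out. In labelled knockouts 11 Kupffer markers fell with ethanol, whereas Abca1 (0.35) and Npc1 (0.60), which Kupffer cells also express, were not called. The part of Kupffer cells in the Abca1 and Npc1 values was not tested.

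Between pair-fed mice of the 2 genotype labels, most synthesis enzymes had estimates below 0, but none passed the test. No gene of the 36 was called (edgeR, background 0.87%), with 6 at an unadjusted p under 0.05 (7 in DESeq2 and 5 in limma-voom, which also called 0). Of all 13097 genes, 1110 had an unadjusted p under 0.05 in edgeR. Of the 20 synthesis enzymes 19 had a log2 fold change below 0, with a median of -0.45 against -0.01 over all genes, and a median of -0.06 over the 12 uptake, ester and efflux genes. All 3 labelled knockouts lay below all 3 wild type mice for 8 of the 20 enzymes and for 0 of the 12 others, with 12.6% of all genes so placed. These counts are descriptions, since the enzymes are not replicates of the condition.

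The 6 genes at an unadjusted p under 0.05 were Hmgcs1, Mvk, Pmvk, Sqle, Tm7sf2 and Dhcr7, with log2 changes of -0.75 to -0.57 and adjusted p of 0.165 to 0.504. Dhcr7, a reductase of the last steps, read 184, 198 and 116 CPM in wild type and 106, 88.6 and 101 CPM in labelled knockouts (-0.75 ± 0.21, adjusted p = 0.165). Mvk, mevalonate kinase, read 33.5, 36.6 and 24.1 CPM against 19.9, 17.7 and 21.0 CPM (-0.69 ± 0.22, adjusted p = 0.251). The groups were apart for both, with wild type mouse 3 closest to the labelled knockouts. When only the 2 pair-fed groups were fitted, 3 genes of the 36 passed. They were Insig1 (-0.57, adjusted p = 0.013), Hmgcs1 (-0.73, adjusted p = 0.0219) and Mvk (-0.68, adjusted p = 0.0365). Over all genes that fit called 481, against 114 with all mice fitted, so the 3 are named as a description only.

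Wild type pair-fed mouse 3 was the lowest of its group for 20 of the 20 synthesis enzymes, whereas it was lowest for 3 of the 12 uptake, ester and efflux genes and for 32.9% of all genes. Without it the median difference of the 20 enzymes between pair-fed genotypes was -0.68, and still no gene of the 36 was called (Dhcr7 -0.96, adjusted p = 0.0598). The median ethanol change of the enzymes in wild type without that mouse was -0.92. The labelled knockout pair-fed mice were close to one another, with a median coefficient of variation over the 36 genes of 7.48%, against 18.1% in wild type pair-fed, 30.6% in wild type ethanol-fed and 20.2% in labelled knockout ethanol-fed mice. The genotype and ethanol comparisons share the wild type pair-fed mice, so their values for the same genes are not independent.

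**Figure D4:**
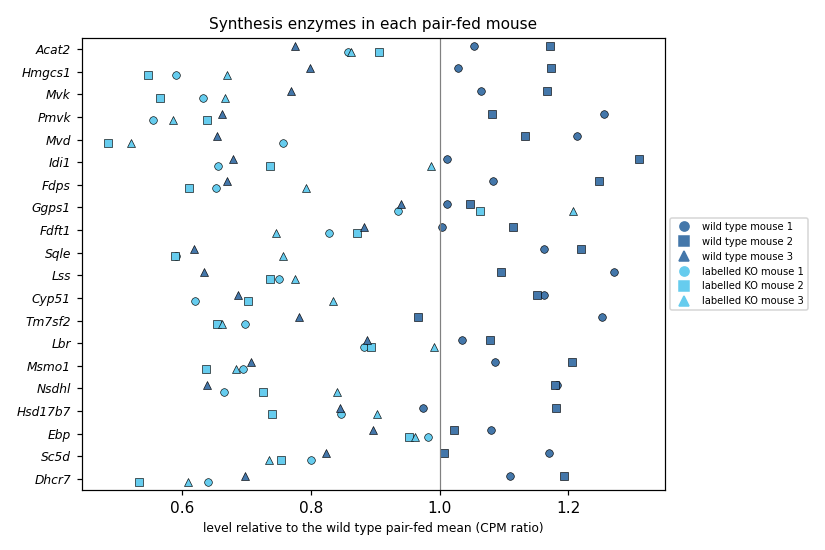
CPM of each synthesis enzyme in each pair-fed mouse as a ratio to the mean of the wild type pair-fed group, with the line at a ratio of 1. Wild type mouse 3 is the lowest of its group for 20 of 20 enzymes, and the labelled knockout mice lie below 1 except mice 2 and 3 for Ggps1.

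Between ethanol-fed mice of the 2 labels no gene of the 36 was called either (edgeR, background 1.13%), with 4 at an unadjusted p under 0.05 (5 in DESeq2 and 4 in limma-voom, which also called 0). Over all genes 1929 of 13097 had an unadjusted p under 0.05 in edgeR, so the 4 are named as a description only. The median over the synthesis enzymes was -0.17, against -0.01 over all genes. The 4 were Abca1 (-0.68 ± 0.21, adjusted p = 0.154), Mvk (-0.64, adjusted p = 0.204), Fdft1 (-0.52, adjusted p = 0.284) and Dhcr7 (-0.49, adjusted p = 0.308). Abca1 passed without wild type ethanol-fed mouse 1 (-0.86, adjusted p = 0.025) or labelled knockout ethanol-fed mouse 1 (-0.93, adjusted p = 0.0352). Mylip passed in the first of these fits as well (0.64, adjusted p = 0.0352).

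Genes around the pathway, from 4 lists with 39 genes that were all in the table, were mixed in direction. Their counts stand beside the shares of all genes given above, 18.9% higher and 14.5% lower in wild type and 13.7% and 10.9% in labelled knockouts, and none is read as particular to a list. Of 11 genes that cleave SREBP or degrade sterol-sensing proteins, 4 rose and 2 fell in wild type and 3 rose and 1 fell in labelled knockouts. Mbtps2, the site-2 protease that releases active SREBP, rose by 1.13 ± 0.22 (adjusted p = 0.00227) and 0.94 ± 0.23 (adjusted p = 0.01). Rnf145, a sterol-responsive ubiquitin ligase, fell by 1.26 ± 0.23 (adjusted p = 0.0018) and 1.27 ± 0.23 (adjusted p = 0.00252), and Ube2g2, a ubiquitin-conjugating enzyme of endoplasmic reticulum degradation, rose by 1.21 and 0.98. The Ube2g2 call in labelled knockouts ended without any 1 of its pair-fed mice or ethanol-fed mouse 3 (0.81 to 0.99).

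Of 10 genes that use isoprenoids, 1 rose and 1 fell in each genotype. These were the farnesyltransferase subunits Fntb (0.80 and 0.54) and Fnta (-0.50 and -0.50), whose labelled knockout calls ended in 6 and 1 of 12 fits that left out 1 mouse (0.47 to 0.57 and -0.46). Of 13 genes of sterol transport and storage, 2 rose and 4 fell in wild type and 3 rose and 4 fell in labelled knockouts. Lipa, the lysosomal acid lipase that frees cholesterol from esters, fell by 0.89 ± 0.12 (adjusted p = 0.000286) and 0.72 ± 0.12 (adjusted p = 0.00143). Of the endoplasmic reticulum sterol carriers of the Gramd1 family, Gramd1c rose by 1.49 ± 0.22 (adjusted p = 0.000487) and 1.32 ± 0.22 (adjusted p = 0.00145) and Gramd1a fell by 0.95 and 0.43. Gramd1b, named after its values were seen to complete the family, rose by 1.49 ± 0.30 in labelled knockouts (adjusted p = 0.00417) and had a value of 0.76 ± 0.30 in wild type (adjusted p = 0.0681). Of 5 known liver X receptor targets, 0 rose and 2 fell in wild type (edgeR, 3 at unadjusted p under 0.05) and 1 rose and 2 fell in labelled knockouts. Over all genes 5730 of 13097 had an unadjusted p under 0.05 for ethanol in wild type. Srebf1, the lipogenic SREBP gene, fell by 1.91 ± 0.30 (adjusted p = 0.000746) and 2.19 ± 0.30 (adjusted p = 0.000629). Pltp, the phospholipid transfer protein, changed by -1.07 and -1.02, calls that ended in 3 and 7 of 12 fits that left out 1 mouse (-1.02 to -0.50 and -1.16 to -0.90). Scd1, a desaturase, had a change of -0.71 ± 0.28 (adjusted p = 0.07) in wild type and rose by 1.03 ± 0.28 (adjusted p = 0.0206) in labelled knockouts, a call that ended in 5 such fits (0.90 to 1.07). Pair-fed Scd1 read 5864, 4032 and 2230 CPM in wild type and 1641, 1615 and 1790 CPM in labelled knockouts. The interaction test called 0 of the 5 targets (edgeR, 1 at unadjusted p under 0.05, as were 696 of all 13097 genes). No genotype comparison called a gene of these lists (edgeR).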

How the data were processed

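Liver RNA of 12 mice was extracted with Trizol and made into TruSeq libraries, per the labels' protocols. The submitters' processing notes list the build mm10 and, as tools with no stated role, STAR 2.5, featureCounts, Subread 1.5.3 and edgeR 3.20.8. Annotation and strand setting were not given in the sources used here. Per the file headers, the authors deposited raw whole-number counts of reads per gene. Their deposited log2 CPM and log2 fold changes, and the deposited p-values of the authors' genotype comparisons, were not used. The deposited gene length gave RPKM.

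Counts were scaled by TMM, and edgeR 4.0.16 under R 4.3.3 gave the tests (quasi-likelihood fit over all 12 libraries, 1 coefficient per group, 8 residual degrees of freedom), with p adjusted over all 13097 genes, all of which passed filterByExpr. Alternatives used limma 3.58.1 and DESeq2 1.42.0, other scalings and filters, and leaving out each mouse. The genes, lists and tests were chosen with earlier results of these data known. Genes were given values per mouse where they had the 3 smallest p of their role in either ethanol comparison, and some others were shown after their values were seen. Up to 3 called genes per added list and comparison were named by smallest p, not all of them described. Some genes of the pathway are not reported here. Each sample is an individual mouse, per the design text. Libraries of a group differed beyond counting error (chi-square over its degrees of freedom, 12.5 to 109.9). Reads carry no molecular identifiers.

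Tested on simulated counts with 200 changed genes (12936 to 12965 genes passing), the procedure recovered 62%, 57%, 69%, 62% and 21% of 2-fold changes for ethanol in wild type, ethanol in labelled knockouts, genotype in pair-fed mice, genotype in ethanol-fed mice and the interaction. False calls made up 8.19%, 4.49%, 2.96%, 4.22% and 11% of all calls, in the same order. The simulated counts had the same spread in every group, whereas the biological coefficient of variation in the mice was 0.114 to 0.117 in pair-fed and 0.224 to 0.271 in ethanol-fed groups.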

Additional observations from a re-analysis of the deposited data

How the results depend on the processing

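With scaling to total counts alone, 11 genes of the 36 rather than 17 were called for ethanol in labelled knockouts. Ethanol changes near 0 took the other sign under that scaling, in wild type for Scap (0.0012), Ebp (0.0143) and Nr1h2 (0.13) and in labelled knockouts for Srebf2 (0.0858), Scap (0.0085), Tm7sf2 (0.11) and Dhcr7 (0.03). Fitting only the 2 groups compared called 3 genes of the 36 between pair-fed genotypes rather than 0, and over all genes 481 rather than 114. Over all genes DESeq2 called 253 there, 448 rather than 148 between ethanol-fed genotypes (47 with only the 2 groups) and 15 rather than 1 for the interaction. Fits that left out 1 mouse called 16 to 23 of the 36 for ethanol in wild type, 9 to 17 in labelled knockouts, 0 to 0 between pair-fed genotypes, 0 to 2 between ethanol-fed genotypes, and 0 to 0 for the interaction. Over all genes these fits called 3023 to 4884, 1853 to 3867, 48 to 151, 69 to 697 and 1 to 20. Signs also turned in such fits for genes that were not called, in wild type for Scap (-0.257 to 0.0646), Nr1h2 (-0.0912 to 0.0419) and Sqle (-0.20 to 0.26). In labelled knockouts they turned for Srebf2 (-0.139 to 0.125), Tm7sf2 (-0.107 to 0.0747), Hsd17b7 (-0.311 to 0.0461), Sc5d (-0.293 to 0.077), Dhcr7 (-0.273 to 0.0587) and Mylip (-0.0679 to 0.156). Replicate numbers are shared between groups in the labels. Deviations of same-numbered mice from their group means had correlations of -0.168 to 0.158 over all genes. Different-numbered mice were not compared in this way, so these values cannot decide whether the numbers pair the mice. A replicate block called 21, 13, 0, 0 and 0 of the 36 in the order above, ending the labelled knockout calls of Hmgcs1, Pmvk, Lss and Nr1h3, and 3949, 2915, 99, 118 and 1 over all genes. The cause of these differences was not tested. The filter of 1 CPM in 6 libraries and median-of-ratios size factors left the counts of the 36 within 1.5 times. With 3 mice per group, differences of 2-fold were often missed in simulated counts.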
